A study of Mus musculus with 5 samples.

Results

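Guides to 16 genes of the PRDM, NSD, DOT1L and SMYD protein methyltransferase families were followed in a pooled CRISPR screen of mouse embryonic stem (ES) cells. They were chosen by gene name: symbols made of Prdm, Setd, Smyd, Nsd or Prmt and a number, together with Dot1l, Carm1, Whsc1 and Whsc1l1. Prdm14 and the Setdb genes were left out. The rule matched 11 Prdm genes (among them Prdm1, Prdm10 and Prdm16), Nsd1, Whsc1 (now Nsd2), Whsc1l1 (now Nsd3), Dot1l and Smyd1, and no name beginning with Setd or Prmt. Each gene had 10 guides, so the set held 160 of 17820 guides. The library covered 1682 genes and 1000 non-targeting control guides.

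There were 5 libraries: 2 of the plasmid pool (a Maxiprep) and 1 each of transduced cells at days 5, 8 and 12. All cells carried the genotype label Ainv15(iNgn2 Tubb3::GFP), a single ES line, and were kept under Zeocin selection in ES cell medium from shortly after transduction, with no other treatment. Sample titles give the days after transduction, whereas the protocol dates day 5 from the start of selection; the titles' numbers entered the trend. The wells of the screen are not told apart in the labels, and how Cas9 was supplied is not given in the sources used here. The plasmid libraries held 3541896 and 1350234 reads and the cell libraries 1008492 to 1082489.

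SET-domain enzymes transfer methyl groups to lysines of histones and other proteins. The Nsd enzymes methylate lysine 36 of histone H3. Dot1l has no SET domain and is the methyltransferase of lysine 79 of histone H3, a mark of transcribed genes. Prdm proteins carry a PR domain, a relative of the SET domain, next to DNA-binding zinc fingers. Some, such as Prdm9, are active enzymes and others act mainly as sequence-specific transcription factors. In the assay a cell carries a lentiviral guide that directs Cas9 to a gene, so a guide that is lost from the pool marks cells that were depleted.

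The guides that carry the results are shown first, 5′ to 3′ as the library lists them, numbered 1 to 10 within each gene in library order. Capitals mark the 12 bases next to the protospacer-adjacent motif (PAM), the seed that Cas9 pairing depends on most. The PAM itself is not part of the listed sequence. Its side was checked on 24 guides of the library that lie in the promoter window of their own gene in RefSeq (GRCm38.p6), and all 24 were followed by NGG. No seed of the 160 guides was also the seed of another guide of the library, although overlapping guides to 1 gene share bases. The guides to Dot1l are shown because they were lost as a group.
Dot1l guide 1: taatctcaTGAGCAGCATCA
Dot1l guide 2: gatcaggaCATAGTTCTCCA
Dot1l guide 3: ggaaatccCAGATCTCAAGC
Dot1l guide 4: gctgaggcTCAAGTCGCCTG
Dot1l guide 5: ccgagcccGCCGTCTACCCG
Dot1l guide 6: cgtctaccCGTGGCCGCTGC
Dot1l guide 7: ggctgtgtGACAAATACAAC
Dot1l guide 8: cggcagcgGCCACGGGTAGA
Dot1l guide 9: ccacgggtAGACGGCGGGCT
Dot1l guide 10: tccatggcCAGCTTGAGATC

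The guides to Prdm10 are shown because they split into lost and retained guides.
Prdm10 guide 1: actggtctACATCCACCCGG
Prdm10 guide 2: tgttccggATGCCGGAACTG
Prdm10 guide 3: tacatagaTAGGTTCCTCGG
Prdm10 guide 4: ctatctatGTAGAGGACCAG
Prdm10 guide 5: accgtccaCTGACGTGTAGG
Prdm10 guide 6: agctccgaTCCCCTGACCAG
Prdm10 guide 7: tggaccgtCCACTGACGTGT
Prdm10 guide 8: cgaggaacCTATCTATGTAG
Prdm10 guide 9: gtatacacCACCTGCTGGGG
Prdm10 guide 10: ttgcccggGTGAGCACAGGC

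For Nsd1 the 3 lowest guides (1, 4 and 8), the highest (3) and their overlapping neighbours (7 and 2) are shown.
Nsd1 guide 1: atatcgcgAATACTACGTAG
Nsd1 guide 7: tctacgtaGTATTCGCGATA
Nsd1 guide 4: catttactCAAAATCTTCTG
Nsd1 guide 8: agagggaaACAGAAAGAAAA
Nsd1 guide 3: caaaattcAAGAGACGCCCT
Nsd1 guide 2: aattcaagAGACGCCCTTGG

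For 4 of the Prdm genes whose summed reads passed the trend test, the lowest guide at day 12 is followed by the highest.
Prdm1 guide 3: gtaccaagTAGTGTTTCTGC
Prdm1 guide 10: agttcctgGTTGGCAGGGAT
Prdm8 guide 9: gaagagttACTAGTTTGGTA
Prdm8 guide 2: tggcaatcCTGCGGAGAGAG
Prdm9 guide 4: cagaccagAAGCTCACAACC
Prdm9 guide 9: tggtagccTTTCAATATCAC
Prdm16 guide 6: tgcaaagcCAGAGGACGTAG
Prdm16 guide 8: tgcatggtTGTCCGACTCGG

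Of the 160 guides, 142 had at least 30 reads in each plasmid library and were kept, and the other 18 had fewer reads but none was at 0 in both plasmid libraries. Reads per guide were scaled to CPM (reads divided by the TMM-scaled library total), and the change of a guide was log2 of its CPM plus 1 minus the same for the mean of both plasmid libraries. A gene's value was the median over its kept guides, with the SD over guides, which share a target and are not replicates. With 1 library per time point these changes have no replicate check and no test. The test used was the slope over day in edgeR's quasi-likelihood fit to all 5 libraries, with the plasmid set at day 0 and 3 residual degrees of freedom, adjusted by Benjamini-Hochberg over all genes or all guides. It was run on the summed reads of each gene and on single guides, and its spread comes from the plasmid pair and from departures from a straight course.

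At day 12 the 16 genes spread from -1.56 (Dot1l) to 0.71 (Prdm1), with a median of 0.15 against 0.01 over all 1682 genes. Guides to 1 of the 16, Dot1l, had a median of -1 or lower, as did 15.8% of all genes, and guides to none reached 1, as did 1.19%. The non-targeting guides had a median of 0.58 at day 12, so the zero of the scale is the typical guide and not an inert one. Prdm1 was the 1 member above the non-targeting median. In the trend test 2 members fell, Dot1l and Nsd1, and 6 rose, among them Prdm1, Prdm6, Prdm8, Prdm9 and Prdm16. The same test called 25.2% of all genes lower and 34.7% higher, or 59.9% in all, so neither count sets the members apart. At days 5 and 8 no member was at -1 or lower, against 6.3% and 12.1% of all genes, or at 1 or higher, against 0.0595% and 0.178%.

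The control guides themselves rose against the typical guide. Single non-targeting guides were called higher in 45.5% of cases and lower in 4.82%, against 16.1% and 24% of guides to genes. When the libraries were scaled on the non-targeting guides alone, the median of all genes at day 12 moved to -0.59, and the slopes of all 16 members lay below 0, so that edgeR called 0 higher at any p, and 10 lower. Of all genes it then called 64.4% lower and 1.13% higher, so the count of members again lay near the background. Dot1l remained called lower under that scaling, at a median of -2.14. With the main scaling, some fits that left out 1 library also changed the counts. In them 3 members rose without plasmid library 1, 2 without plasmid library 2 and 3 without day 12, and 1 fell in each. Of all genes these fits called 24%, 24% and 27.7% higher and 19.4%, 21.2% and 26.3% lower, in the same order. Without day 5 or without day 8 the counts stayed at 2 lower and 6 higher. Those fits called 26% and 22.9% of all genes lower and 35% and 30.1% higher.

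Dot1l (chromosome 10, 80755101 to 80795461, mm10) codes for the H3 lysine 79 methyltransferase. Its 8 kept guides together had 2410 and 883 plasmid reads, then 551, 355 and 241 reads at days 5, 8 and 12. In scaled units these were 696 and 661 CPM in the plasmid pool, then 531, 339 and 263. Each time point lay below the one before it, and the plasmid libraries differed from each other by less than any time point differed from them. The slope was -0.12 log2 units per day (edgeR quasi-likelihood adjusted p = 8.47e-05), and 38.3% of the plasmid level was left at day 12, with an exact interval of 33.5% to 43.7% that covers counting error only. The call held in every one of 14 alternatives, with edgeR or DESeq2 adjusted p up to 0.0446.

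Most of the fall of the Dot1l median came after day 5. The median was -0.12 (SD 0.74, 8 guides) at day 5, where 4 of 8 guides lay below 0 and Dot1l ranked 611 from the bottom of 1682 genes. It was -0.93 (SD 0.65) at day 8 with 7 of 8 below 0, and -1.56 (SD 0.78) at day 12 with all 8 below 0 (guide 6 by less than the rounding), at rank 174. Only 11.2% of all genes had every kept guide below 0 at day 12, and Dot1l was the 1 member among them. From day 5 to day 12, a step that does not use the plasmid libraries, the median change was -0.90 (SD 0.65) and 8 of 8 guides declined. A median of -1 or lower over that step was reached by 7.02% of genes and by no member.

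Single Dot1l guides took different courses. Guides 3 and 7 were already at -1.55 and -1.30 at day 5 and ended at -1.86 and -2.13. They held 10 and 9 G and C bases, and guides 6, 8 and 9 held 15. Among non-targeting guides each further G or C went with a change of 0.13 log2 units already at day 5. The day 5 median, rank and guide values of Dot1l were not corrected for GC content, and its part in these courses was not tested. Guide 8 stood at 0.02 at day 5 and -0.89 at day 8 and had the lowest end value, -2.24, with 152 and 48 plasmid reads and 7 reads at day 12, or 18.3% of the plasmid level (exact counting interval 7.27% to 38.4%). Guide 6 ended at its plasmid level: it had 151 and 67 plasmid reads and 59, 57 and 43 reads in the cells, with changes of 0.27, 0.21 and 0.00 in turn, the last of them -0.51 after a correction for GC content. Of the 8 guides, 5 (guides 3, 4, 5, 7 and 8) fell in the guide trend test, which called 24% of all guides to genes lower.

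Guides 5, 6, 8 and 9 of Dot1l target 1 GC-rich stretch. Guides 6 and 8 share 18 bases on opposite strands and their expected cuts lie 12 bases apart, yet they ended at 0.00 and -2.24. Guides 5 and 9, with 17 bases shared and cuts 11 bases apart, ended at -1.50 and -0.87. The guides of this stretch held 15 or 16 G and C bases, and among non-targeting guides each further G or C went with a change of 0.12 log2 units at day 12. Corrected for that slope the Dot1l median was -1.81. The 2 guides below the read minimum went to 0: guide 1 had 20 and 7 plasmid reads and then 4, 3 and 0, and guide 2 had 95 and 22 and then 13, 2 and 0. They entered no value above; with all guides included the median was -1.70.

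Partners of Dot1l were read from a list of 7 genes of its complexes, of which 6 were in the library. Guides to 1 fell, Aff4 (median -0.18, SD 1.46, 4 of 8 guides below 0; edgeR adjusted p = 0.0285), and guides to 1 rose, Mllt6 (0.24; edgeR adjusted p = 0.0443). Mllt10, which codes for the Dot1l cofactor AF10, had a median of 0.29, and Mllt1 and Mllt3, which code for the YEATS-domain proteins ENL and AF9, had -0.01 and -0.34. Aff1 had -0.47. Over all genes the shares were 25.2% lower and 34.7% higher. The list median was -0.10 at day 12, and no partner reached the -1.56 of Dot1l.

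The 3 lysine 36 enzymes had medians at day 12 of -0.36 (Nsd1), -0.27 (Whsc1) and -0.11 (Whsc1l1). Nsd1 (chromosome 13, 55209782 to 55318325) had 622 and 592 CPM summed over its 10 guides in the plasmid pool, then 512, 552 and 470 CPM at days 5, 8 and 12. All time points lay below the plasmid pair, without a steady order. The slope was -0.028 per day (edgeR adjusted p = 0.0219), and 5 of 14 alternatives lost the call, among them the GC correction (adjusted p = 0.179) and the fits without plasmid library 1 (0.128), without plasmid library 2 (0.0584) and without day 12 (0.132).

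The Nsd1 guides ran from -1.94 to 0.69 at day 12, with 6 of 10 below 0. Guide 1 dropped stepwise from -0.88 at day 5 to -1.02 at day 8 and -1.94 at day 12. Its neighbour on the opposite strand, guide 7, shares 19 bases and cuts 13 bases away, and it ended at -0.26. Guides 4 and 8, with 6 and 7 G and C bases, were lowest at day 5 (-2.10 and -1.84) and stood higher at day 12 (-1.47 and -1.26, or -0.88 and -0.83 after the GC correction). Guides 2 and 3, shifted by 3 bases on the same strand, ended together at 0.45 and 0.69. Nsd1 guides averaged 8.9 G and C bases against 10.8 over all guides to genes, and the GC-corrected median was -0.07; the part of GC content in the Nsd1 call was not tested beyond that correction.

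Whsc1 codes for NSD2, a lysine 36 dimethylase, and Whsc1l1 for its relative NSD3. Guides to Whsc1 (chromosome 5, 33820676 to 33897966) were close together, with an SD of 0.27 at day 12, the smallest of the 16, and 7 of 8 below 0. Its summed level was 447 and 430 CPM in the plasmid pool, 412 and 430 at days 5 and 8, and 347 at day 12. Day 12 was the 1 library apart, and the slope did not pass (edgeR adjusted p = 0.131). It was called lower with at least 100 plasmid reads (0.0479), where only guides 3 and 6 were left. With the GC correction the slope was 0.00047 (0.974). With non-targeting scaling edgeR called Whsc1 and Whsc1l1 lower (adjusted p = 0.00234 and 0.00153), where it called 64.4% of all genes lower. Whsc1l1 (chromosome 8, 25601601 to 25719667) had 830 and 901 CPM in the plasmid pool, 827 and 823 at days 5 and 8 and 802 at day 12, a slope that did not pass (edgeR adjusted p = 0.36), and 1 guide, number 10, stood apart at -1.66 while the other 8 lay between -0.48 and 0.35.

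Of a list of 14 readers of the lysine 36 mark, 8 were in the library. Guides to 2 fell, Brpf1, a subunit gene of MOZ-type acetyltransferase complexes (median -2.19, SD 1.17, 10 of 10 guides below 0; edgeR adjusted p = 5.04e-05), and Psip1, which codes for the reader LEDGF (-0.06, SD 1.10; edgeR adjusted p = 0.0164). Guides to 1 rose, Msl3 (0.34; edgeR adjusted p = 0.00862). The test called 25.2% of all genes lower and 34.7% higher, so these counts do not set the readers apart. The other 5, Hdgfrp2, Zmynd11, Phf1, Mtf2 and Phf19, had medians from -0.18 to 0.30 and did not pass. Brpf1 alone among the readers lay at -1 or lower.

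Among the 11 Prdm genes guides to 0 fell and guides to 6 rose in the gene trend test by edgeR, against 25.2% and 34.7% of all genes. At day 12 the medians ran from -0.24 (Prdm4) to 0.71 (Prdm1). DESeq2 also called 0 of them lower, and no lower slope had an unadjusted p under 0.05 in edgeR. Scaled on the non-targeting guides, edgeR called 5 of the 11 lower (Prdm2, Prdm4, Prdm6, Prdm9 and Prdm10) and none higher, where it called 64.4% of all genes lower and 1.13% higher. Prdm14, the family member outside this set, had a median of 1.58 with 7 of 7 kept guides above 0, above every Prdm gene described here.

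Prdm10 (chromosome 9, 31276110 to 31381731), a widely expressed zinc-finger factor, stood apart by the spread among its own guides. Its summed level was 645 and 647 CPM in the plasmid pool and 692, 554 and 618 CPM at days 5, 8 and 12, and the slope did not pass (edgeR adjusted p = 0.393). Its median at day 12 was -0.21, but the SD over its 10 guides was 2.24, the largest of the 16 and the 5th largest of 1682 genes, where the median SD was 0.77. The sum and the median both hid a split. Guides 3, 4, 6 and 8 lay at -2.12, -4.58, -3.03 and -4.96 at day 12 and the other 6 between -0.42 and 0.83.

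The 4 low Prdm10 guides had declined together from the start. They lay between -1.46 and -1.13 at day 5, between -3.19 and -2.01 at day 8 and between -4.96 and -2.12 at day 12. Together they had 750 and 262 plasmid reads and 85, 29 and 15 reads in the cells, so 7.76% of the plasmid level was left (exact counting interval 4.32% to 12.9%). The other 6 had 1485 and 602 plasmid reads and 633, 551 and 552 in the cells, which is 138% of the plasmid level at day 12 (126% to 152%). The 4 were picked for their low values in these libraries, so these shares describe the pick and test nothing. In the guide trend test over all guides, guide 5 of the others rose (edgeR adjusted p = 0.0399). Guides 4 and 8 had 1 read each at day 12, or 2.21% (0.0557% to 12.4%) and 1.68% (0.0425% to 9.44%) of their plasmid level.

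Of the 4 low guides, 3 hit the same place. Laid over each other, guides 3, 8 and 4 cover a stretch of 29 bases, ccgaggaacctatctatgtagaggaccag, in which guide 3 lies on the opposite strand. Guides 3 and 8 share 19 bases and guides 8 and 4 share 12, with expected cuts 15 and 8 bases apart. Guide 6 shares no 12 bases with any other Prdm10 guide. A second overlapping pair, guides 5 and 7, shares 17 bases of another stretch, tggaccgtccactgacgtgtagg, and both stayed above 0, at 0.73 and 0.37. Where these places lie in the transcript was not analysed here.

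By the range between its lowest and highest guide at day 12 Prdm10 ranked 17 of 1682 genes, and 477 genes had a range over 3, so wide ranges were common in the library. Over all guides to genes 9.47% lay at -2 or lower, against 0.336% of non-targeting guides. The low guides held 9, 9, 13 and 9 G and C bases and the other 6 between 12 and 14. After the GC correction low guides 3 and 6 lay at -1.97 and -3.30. Corrected counts were rounded to whole reads, so guides 4 and 8, with 1 read each at day 12, could not move. They stayed at -4.58 and -4.96, and the correction says nothing about them. With at least 100 reads per plasmid library only guides 5 and 7 were left, and the median of Prdm10 turned to 0.51.

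Prdm1 codes for BLIMP1, a repressor that sets up germ cells and plasma cells. Its summed level was 468 and 428 CPM in the plasmid pool, then 471, 568 and 659 CPM at days 5, 8 and 12. The cells ended above both plasmid libraries, with a slope of 0.045 per day (edgeR adjusted p = 0.00338). Of its 8 kept guides 7 lay above 0 at day 12, from 0.14 to 0.78, and guide 3 at -0.55. Its median of 0.71 ranked 56 from the top, against a non-targeting median of 0.58; scaled on the non-targeting guides its slope was -0.0097 and did not pass (edgeR adjusted p = 0.577). The call was also lost with the cells set against the plasmid pool (edgeR adjusted p = 0.108). It was lost too with at least 100 plasmid reads (0.476), where only guide 8 was left, at -1.34, -0.13 and 0.68 at days 5, 8 and 12 with the main settings.

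Prdm6, Prdm8, Prdm9 and Prdm16 were called higher and moved less. At day 12, 7 of 10 kept guides to Prdm6 and 7 of 9 to Prdm8 lay above 0. For Prdm9 and Prdm16 these were 6 of 8 and 5 of 10. The guide trend test called 2, 2, 0 and 3 guides of these genes higher, in that order, against 16.1% of all guides to genes. The medians at day 12 were 0.40 for Prdm9, the enzyme that places meiotic recombination sites, 0.23 for Prdm8, 0.16 for Prdm6 and 0.15 for Prdm16, a regulator of brown fat and blood stem cells. Their edgeR adjusted p lay between 0.0093 (Prdm16) and 0.0463 (Prdm9), and 3 to 7 of 14 alternatives ended the call of each, with non-targeting scaling, which also ended all 4, counted apart. Without plasmid library 1 it was lost for Prdm6, Prdm9 and Prdm16 (edgeR adjusted p = 0.0715 to 0.173), without plasmid library 2 for Prdm6, Prdm8 and Prdm9 (0.0506 to 0.0911), and without day 12 for Prdm8 and Prdm9 (0.131 to 0.287). Scaled on the non-targeting guides, the slopes of all 4 turned below 0, and those of Prdm6 and Prdm9 were then called lower (edgeR adjusted p = 0.0405 and 0.0388). With the GC correction the call was lost for Prdm6 (edgeR adjusted p = 0.111) and Prdm16 (0.0589, median -0.036) and held for Prdm8 and Prdm9. Prdm16 held the highest guide of the set, guide 8 at 1.53, and guide 9, shifted by 3 bases, ended at 0.66.

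Prdm2, Prdm4, Prdm12, Prdm13 and the muscle methyltransferase gene Smyd1 did not pass, with edgeR adjusted p from 0.182 to 0.959. Prdm12 was called higher with the GC correction (edgeR adjusted p = 0.0461) and with at least 100 plasmid reads (0.0157), where only guide 5 was left. With non-targeting scaling the Prdm12 slope was -0.030 and was not called (0.216). For these genes the values that follow are from the main settings. The medians of Prdm2, Prdm4, Prdm12, Prdm13 and Smyd1 at day 12 were 0.20, -0.24, 0.30, 0.33 and 0.02. Summed levels at day 12 were 453 to 805 CPM for Prdm2, Prdm4 and Smyd1 and 364 and 385 CPM for Prdm12 and Prdm13, which kept 6 and 7 guides. Prdm4 had 2 low guides, number 7 (-1.82) and number 9 (-1.29). Smyd1 guide 10, with 7 G and C bases, was at -1.33, or -0.86 after the GC correction. Prdm12 guide 9 was the 1 guide of these genes above 1, at 1.09.

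Counted over guides, 17 of 142 members' guides, or 12.0%, lay at -1 or lower at day 12, against 21.5% of guides to genes and 3.36% of non-targeting guides. Most belonged to Dot1l (5), Prdm10 (4), Nsd1 (3) and Prdm4 (2), and Smyd1 and Whsc1l1 had 1 each. Overlap of target did not bring guides closer as a rule. In the 20 overlapping pairs with both guides kept, the values at day 12 differed by a median of 0.69, against 0.62 in the 551 other pairs of guides to 1 member gene, a description with no test since pairs share guides.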

How the data were processed

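Each library came as a deposited table of raw read counts by guide, per the file headers. The submitters' processing notes list cutadapt, Bowtie, featureCounts and mm10, with no versions. How reads were matched to guides is not given in the sources used here. The values of 1 member gene are not reported here; counts over the members include it. The members, gene lists and tests were chosen with earlier results of these data known. Guides with at least 30 reads in each plasmid library were kept (15336 of 17820, of which 893 non-targeting), with a median of 178 and 68 reads in the plasmid libraries and 47 to 53 in the cells, which limits single guides to coarse values. Counts were scaled with TMM (edgeR 4.0.16, R 4.3.3); fold changes on the log2(value + 1) scale understate deep losses. Gene sums used the guides' scaling. The gene trend test, but not the guide trend test, was tried on simulated data. The plan was full values for genes past the gene trend test, with a day 12 median of at least 1 in size, or lowest or highest in their role list. Values in every library are given here for Dot1l, Nsd1, Whsc1, Whsc1l1, Prdm1 and Prdm10. The other members described, among them Prdm6, Prdm8, Prdm9 and Prdm16, which passed the gene trend test, have shorter values. Symbols and gene coordinates are RefSeq's (GRCm38.p6): 14 matched by symbol and 2 by synonym. The labels do not say that the plasmid libraries are separate preparations, so p-values measure the spread between libraries, which may be technical; they differed by more than sampling noise (chi-square 2.18 times its degrees of freedom over the 142 guides). Alternatives covered scaling, filter, GC content, pseudocount, DESeq2 1.42.0 and left-out libraries.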

Additional observations from a re-analysis of the deposited data

How the results depend on the processing

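The call on Dot1l and its place as the member with a day 12 median of -1 or lower held in every alternative run (median -2.14 to -1.37). No member reached 1 in any of 12. With the mean over guides 2 members lay at -1 or lower, Dot1l and Prdm10 (-1.27), and with at least 100 plasmid reads 2, Dot1l and Nsd1 (-1.25). The Nsd1 value then rested on guides 1 and 6 alone, which stood at -1.94 and -0.45 with the main settings. The counts of the trend tests moved more, as did the shares over all genes, which were 18.5% to 28.9% lower and 19.8% to 37.9% higher, except 64.4% and 1.13% with non-targeting scaling. Members called lower numbered 2, and 10 with non-targeting scaling, 3 with at least 100 plasmid reads and 1 with the GC correction. They also numbered 1 with cells set against plasmid, 1 without day 12 and 1 without either plasmid library. Members called higher numbered 6, and 3 with library totals alone, 0 with non-targeting scaling, 4 with at least 100 plasmid reads and 5 with the GC correction. They numbered 2 with cells set against plasmid, 3 without day 12 and 2 to 3 without a plasmid library. For single guides, the main fit called 24% of all guides to genes lower and 16.1% higher. The shares over all guides are not given here for the alternatives, so the counts below have no background there. Member guides called lower numbered 20 of 142 in the main fit. They numbered 57 with non-targeting scaling, 7 of 45 with at least 100 plasmid reads and 11 to 15 without a plasmid library. Member guides called higher numbered 18, and 10 with library totals alone, 1 with non-targeting scaling, 9 of 45 with at least 100 plasmid reads, 9 with DESeq2, 8 with cells set against plasmid, 11 without day 8, 11 without day 12 and 5 to 6 without a plasmid library. Scaling on non-targeting guides reversed the slopes of Prdm1 (-0.0097), Prdm16 (-0.022), Prdm2 (-0.054), Prdm6 (-0.026), Prdm8 (-0.023) and Prdm9 (-0.033), and the slopes of Prdm12 (-0.030) and Prdm13 (-0.031), which were not called, changed sign too. This follows from the rise of those guides against the typical guide. TMM on gene sums, added after seeing the data, gave 2 members lower and 5 higher. No paired analysis was possible because each time point has 1 library. Depth leaves changes of single guides with few plasmid reads uncertain, and no culture was replicated.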

Other observations

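Partner lists of enzymes without a guide in the set were also read at day 12. All 3 library genes of the SETD1 complex list fell in the gene trend test by edgeR: Cxxc1 (median -2.43, SD 1.08, 10 of 10 guides below 0), Hcfc1 (-2.15, SD 1.66, 10 of 10) and Ash2l (-1.56, SD 1.37, 9 of 9). Hcfc1 and Ash2l also serve other complexes. Of the 4 library genes tied to lysine 20 of histone H4, guides to 2 fell, Trp53bp1 (-1.97, 8 of 8 guides below 0) and the demethylase gene Phf8 (-0.87, 9 of 10), and guides to 1 rose, L3mbtl1 (0.67, 1 of 8 below 0), near the non-targeting median of 0.58; L3mbtl3 (-0.26) did not pass. The gene trend test called 25.2% of all genes lower and 34.7% higher. These lists hold few genes and were chosen with earlier results known.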
